A study of Mus musculus with 2 samples.

Results

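Lef1-positive T cells were T cell barcodes that carried RNA of Lef1, a transcription factor of resting and memory T cells. They were picked from 2 droplet libraries of CD45-positive immune cells from mouse brain tumours. A barcode was kept with at least 300 genes, at least 500 unique molecular identifiers (UMIs, each standing for 1 captured RNA molecule) and under 10% of UMIs on mitochondrial genes. A kept barcode was chosen when it had at least 2 UMIs of Cd3d, Cd3e and Cd3g together, at least 1 Lef1 UMI and none of Foxp3, with C1qa and C1qb under 0.5% of its UMIs and fewer than 3 UMIs of Mki67 and Top2a. This rule found 133 barcodes among 15234 kept ones, 71 of 7079 in the ibudilast library and 62 of 8155 in the PBS library. They are called members below.

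The ibudilast library came from C57BL/6 mice given the drug into the stomach at 20 mg/kg, 5 times a week for 2 weeks. The PBS library came from C57BL/6 mice given PBS by the same route, and its treatment label reads "untreated". All mice carried GL261, a transplantable mouse glioma line, injected into the brain. Ibudilast inhibits phosphodiesterases and the cytokine MIF. Each group was 1 library, and the sources used here do not give how many mice it was made from. No test of the treatment could therefore be made. Intervals are 95% exact ones for counting error only, and they leave out the spread between mice and between cells.

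LEF1 and its relative TCF-1, encoded by Tcf7, bind DNA at the end of the Wnt pathway and guide T cell development in the thymus. Naive and memory T cells keep both factors, together with CCR7 and S1PR1, receptors that route cells through lymph nodes and back into blood. Effector T cells lower them and make granzymes and chemokines. In chronic infection and in tumours, T cells with TCF-1 are known as a reservoir that renews exhausted cells.

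The ibudilast library held 8483 barcodes and 82196922 UMIs, the PBS library 8968 barcodes and 119113794 UMIs. Members had a median of 7826 UMIs in the ibudilast library and 8584 in the PBS library, and together 821954 UMIs in the ibudilast library and 634141 in the PBS library. T cells that met every other part of the rule but had no Lef1 UMI, called Lef1-zero T cells here, numbered 713 in the ibudilast library (median 7516 UMIs) and 446 in the PBS library (median 7478.5 UMIs). Across the libraries 19 barcode sequences were shared, none of them among the members. Haemoglobin RNA, a trace of red cells, was at 74.2 CPM (UMIs per 1000000 UMIs of the summed cells) in ibudilast members and 6.31 CPM in PBS members. The Lef1-zero T cells had similar levels, 75.1 CPM in the ibudilast library and 9.21 CPM in the PBS library.

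Most of the cells passed on a single Lef1 molecule. Of the ibudilast members, 56 had 1 Lef1 UMI and 15 had more, against 42 with 1 and 20 with more in the PBS library, and the highest count was 5 in each library. Tcf7 was at 44.6 CPM in ibudilast members with 1 Lef1 UMI and 72.1 CPM in those with more, and at 63.9 CPM in PBS members with 1 and 66.1 CPM in those with more. Ccr7, the lymph node homing receptor, was at 51.0 CPM in ibudilast members with 1 Lef1 UMI and 139 CPM in those with more, and at 36.8 CPM in PBS members with 1 and 149.8 CPM in those with more. Id3, an inhibitor of E proteins kept by memory T cells, ran the other way, at 79.6 CPM in ibudilast members with 1 Lef1 UMI and 51.5 CPM in those with more, and at 83.5 CPM in PBS members with 1 and 17.6 CPM in those with more. S1pr1, a receptor for exit into blood, was at 47.8 CPM in ibudilast members with 1 Lef1 UMI and 46.4 CPM in those with more, and at 36.8 CPM in PBS members with 1 and 74.9 CPM in those with more. Of the 4 genes, Ccr7 was higher in both libraries where Lef1 was higher, and Tcf7 and S1pr1 each differed little in one library. Id3 was lower by level in both, but 1 ibudilast member held 24 of 60 Id3 UMIs and 1 PBS member 11 of 38. By cells, Id3 was found in 14 of 56 ibudilast members with 1 Lef1 UMI and 5 of 15 with more. In the PBS library it was found in 7 of 42 and 3 of 20, so the share of cells was not lower in the ibudilast library and little different in the PBS library.

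Just outside the rule stood cells of several kinds. Among Lef1-bearing barcodes that met everything but the CD3 bound, those with 1 CD3 UMI numbered 12 (ibudilast) and 5 (PBS). Those with none numbered 70 in the ibudilast library and 39 in the PBS library. Of these barcodes without CD3, 65 (ibudilast) and 30 (PBS) held Nkg7, a granule gene of NK cells and cytotoxic T cells, so Lef1 RNA was not limited to T cells. The bound on C1qa and C1qb, complement genes of macrophages and microglia, removed 67 (ibudilast) and 74 (PBS) barcodes that met everything else. Those with 0.5% to 1% of C1q UMIs had medians of 22697.5 (ibudilast) and 22064 (PBS) UMIs, far above the members. The bound on Mki67 and Top2a, genes of dividing cells, removed 26 (ibudilast) and 15 (PBS) barcodes that met everything else. Foxp3, the defining factor of regulatory T cells, removed 18 (ibudilast) and 6 (PBS) that met everything else.

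Lef1-positive cells made up 9.06% of Foxp3-negative T cells in the ibudilast library (71 of 784, interval 7.14 to 11.3) and 12.2% in the PBS library (62 of 508, interval 9.49 to 15.4). The ratio of the shares was 0.742, with an interval of 0.520 to 1.06 that includes equal shares. With each barcode thinned to 2000 UMIs and the rule applied to the thinned counts, shares were 3.08% in the ibudilast library (25 of 813) and 3.22% in the PBS library (18 of 559), a ratio of 0.955 (0.501 to 1.86). This left out 609 (ibudilast) and 356 (PBS) shallower kept barcodes. As a share of all kept barcodes the same cells were 1.003% in the ibudilast library and 0.760% in the PBS library. T cells as a whole made up 11.1% of the ibudilast barcodes and 6.23% of the PBS barcodes. With at least 2 Lef1 UMIs required, 15 ibudilast and 20 PBS cells were left, and the ratio of the shares of T cells was 0.486, with an interval of 0.231 to 0.999 that ends just below equal shares. The ratio of shares of T cells was thus below 1 under these 3 rules, and whether its interval included 1 depended on the Lef1 minimum.

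The share of T cells with Lef1 was well above the droplet background. Myeloid barcodes rich in C1q and without CD3 carried a Lef1 UMI in 1.48% of cases in the ibudilast library and 1.03% in the PBS library, at medians of 10441 and 15185 UMIs. Thinned to 2000 UMIs, Lef1 was found in 0.198% (ibudilast) and 0.130% (PBS) of them and in 4.55% (ibudilast) and 2.20% (PBS) of Foxp3-positive T cells. It was found in 7.54% (ibudilast) and 6.87% (PBS) of barcodes with Ncr1, an NK cell receptor, and no CD3. These NK barcodes had medians of 5001 (ibudilast) and 7287 (PBS) UMIs, and their share with Lef1 was above that of the T cells.

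The label given to these cells, naive or memory-like, was checked with genes that did not choose them. Tcf7 was found in 25 of 71 ibudilast members (35.2%) and 23 of 62 PBS members (37.1%), against 8.84% (ibudilast) and 7.85% (PBS) of Lef1-zero T cells and 0.699% (ibudilast) and 0.662% (PBS) of myeloid barcodes. NK barcodes without CD3 held it in 19.7% of cases in each library, at 38.5 (ibudilast) and 35.1 (PBS) CPM, so it was not limited to T cells. Its level in members was 51.1 CPM, against 14.7 CPM in Lef1-zero T cells of the ibudilast library, a ratio of 3.47 (2.36 to 5.03). In the PBS library it was 64.7 CPM in members and 13.7 CPM in Lef1-zero T cells, a ratio of 4.72 (3.07 to 7.20). After thinning, 12.4% (ibudilast) and 15.3% (PBS) of members held Tcf7, against 3.22% (ibudilast) and 2.90% (PBS) of Lef1-zero T cells. Id3 was at 73.0 CPM in members and 21.3 CPM in Lef1-zero T cells of the ibudilast library, and at 59.9 CPM in PBS members and 16.2 CPM in PBS Lef1-zero cells. Both marker genes stood higher in the members of both libraries.

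Both homing genes stood higher in members, except that Ccr7 in the ibudilast library was not apart from its Lef1-zero level. S1pr1, the receptor for the lipid that draws lymphocytes into blood, was at 47.4 CPM in members and 10.3 CPM in Lef1-zero T cells of the ibudilast library (ratio 4.63), and at 50.5 CPM in PBS members and 9.46 CPM in PBS Lef1-zero cells (ratio 5.33). Ccr7, the receptor that leads T cells into lymph nodes, was at 71.8 CPM in ibudilast members and 60.9 CPM in ibudilast Lef1-zero cells, a ratio of 1.18 (0.881 to 1.55) that is not apart from 1, and at 77.3 CPM in PBS members and 40.1 CPM in PBS Lef1-zero cells. Klf2, the factor that drives S1pr1, was at 1692 CPM in ibudilast members and 902 CPM in ibudilast Lef1-zero cells and at 1695 CPM in PBS members and 842 CPM in PBS Lef1-zero cells. Klf2 was also at 611 CPM in ibudilast and 627 CPM in PBS myeloid barcodes, so its RNA was not limited to T cells.

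**Figure D1:**
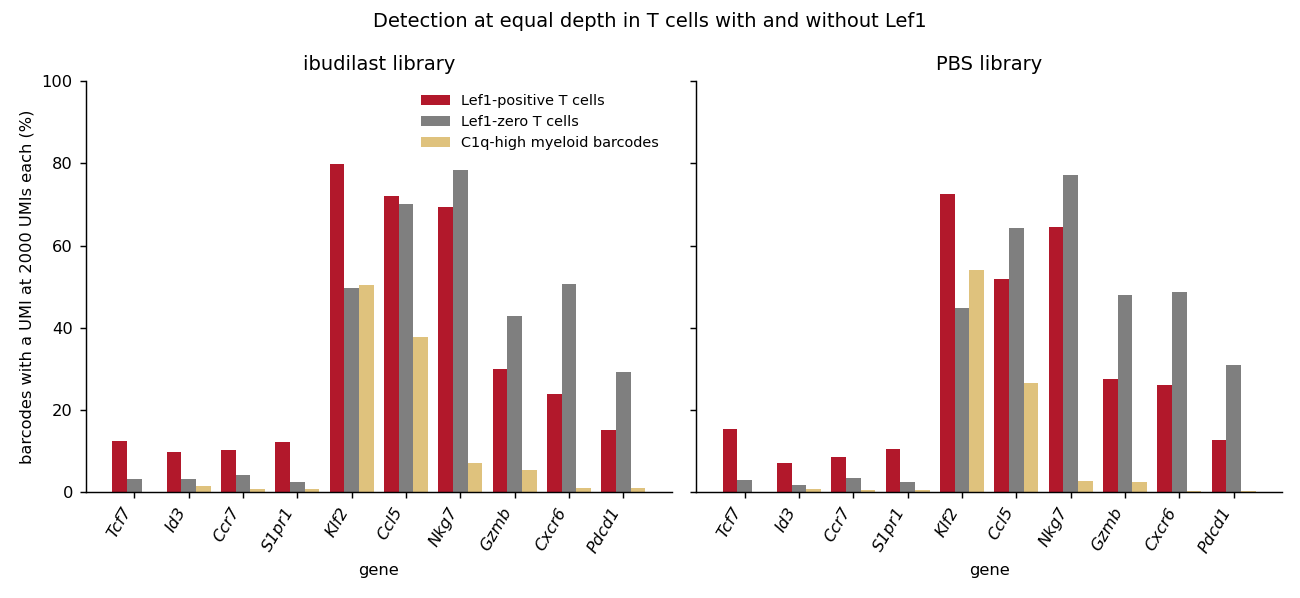
Percent of barcodes with at least 1 UMI of each gene after thinning to 2000 UMIs, in Lef1-positive T cells, Lef1-zero T cells and C1q-high myeloid barcodes of the ibudilast and PBS libraries. Tcf7, Id3 and S1pr1 were found in a larger share of Lef1-positive than of Lef1-zero T cells in both libraries, and Cxcr6 and Pdcd1 in a smaller share.

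Effector RNA was present in nearly all of these cells, which goes against the word naive in the label. At least 3 UMIs of Ccl5, Nkg7, Gzmb, Cxcr6 and Pdcd1 together were found in 69 of 71 ibudilast members (97.2%) and 54 of 62 PBS members (87.1%). The same held for 91.4% (ibudilast) and 92.8% (PBS) of Lef1-zero T cells, and for 43.4% (ibudilast) and 33.4% (PBS) of myeloid barcodes, which give the background. After thinning the shares were 77.1% (ibudilast) and 67.7% (PBS) of members, 82.8% (ibudilast) and 82.5% (PBS) of Lef1-zero T cells, and 17.5% (ibudilast) and 9.002% (PBS) of myeloid barcodes. Nkg7 stood well above the background: after thinning it was found in 69.3% (ibudilast) and 64.4% (PBS) of members and in 7.01% (ibudilast) and 2.78% (PBS) of myeloid barcodes. Ccl5 was found in 72.1% (ibudilast) and 51.8% (PBS) of members and in 37.7% (ibudilast) and 26.5% (PBS) of myeloid barcodes.

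Homing RNA was less widespread. A UMI of Ccr7 or S1pr1 was found in 36 ibudilast members (50.7%, interval 38.6 to 62.8) and 24 PBS members (38.7%, interval 26.6 to 51.9), against 14.4% (ibudilast) and 12.6% (PBS) of Lef1-zero T cells and a myeloid background of 5.85% (ibudilast) and 5.40% (PBS). After thinning it was found in 22.9% of ibudilast and 17.7% of PBS members, against 5.31% (ibudilast) and 5.24% (PBS) of Lef1-zero T cells.

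Only 1 ibudilast member and 2 PBS members had homing RNA with fewer than 3 effector UMIs, the state closest to a naive cell. Both kinds of RNA stood together in 35 ibudilast and 22 PBS members, and 1 ibudilast and 6 PBS members had neither. The cut of 3 effector UMIs takes no account of depth. After thinning of the 70 ibudilast and 62 PBS members that were deep enough, 2 (ibudilast) and 4 (PBS) had homing RNA with fewer than 3 effector UMIs. Both kinds then stood together in 14 ibudilast and 7 PBS members. The median effector count was 40 UMIs in ibudilast members and 25.5 in PBS members, and 1 ibudilast and 3 PBS members had none. Genes of T cells still forming in the thymus were near or at zero: Rag1, Rag2 and Dntt had no UMI in any member, which allows up to 3.65 CPM in the ibudilast library and 4.73 CPM in the PBS library. These cells are called Lef1-positive T cells throughout, since the data show memory and homing genes beside effector genes and few cells without effector RNA.

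**Figure D2:**
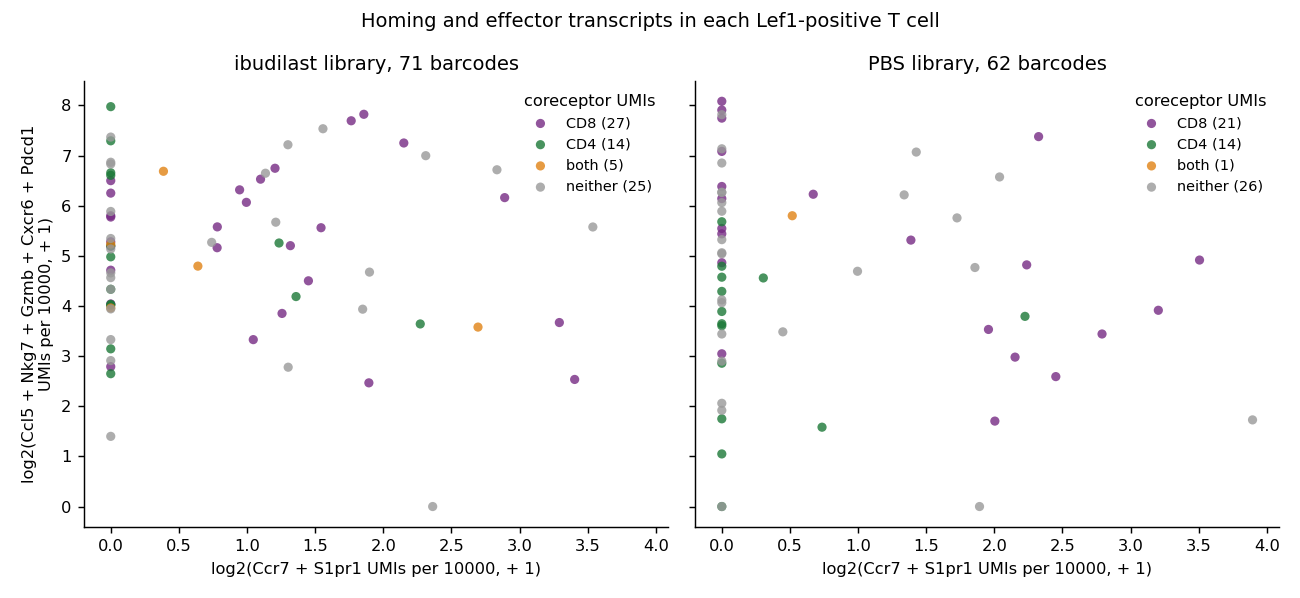
Each point is 1 Lef1-positive T cell of the ibudilast library (left) or the PBS library (right), placed by its summed UMIs of Ccr7 and S1pr1 (horizontal) and of the 5 effector genes (vertical), both scaled to the cell's total UMIs on a log2 scale and coloured by CD8 or CD4 RNA. Most cells with homing RNA also have effector RNA, 35 of 36 in the ibudilast library and 22 of 24 in the PBS library with at least 3 effector UMIs.

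NK cells are the other lymphocytes with Lef1 RNA here, and their genes were measured in the members. Trac, the constant part of the T cell receptor alpha chain, was found in 61 of 71 ibudilast members (85.9%) and 53 of 62 PBS members (85.5%), against 87.0% (ibudilast) and 89.7% (PBS) of Lef1-zero T cells and 9.67% (ibudilast) and 12.1% (PBS) of NK barcodes. Trbc1 could not tell the kinds apart, since 79.6% (ibudilast) and 81.8% (PBS) of NK barcodes also held it. A UMI of Ncr1, Klrb1c, Klra8 or Klre1, all NK receptors, was found in 28 ibudilast members (39.4%) and 20 PBS members (32.3%), below the 55.4% (ibudilast) and 49.8% (PBS) of Lef1-zero T cells. Ncr1 itself was found in 15.5% (ibudilast) and 9.68% (PBS) of members, above 5.05% (ibudilast) and 4.04% (PBS) of Lef1-zero T cells. Members with an NK receptor and no Trac numbered 5 in the ibudilast library and 1 in the PBS library. The comparisons below were repeated without every cell with NK receptor RNA, which removed the 28 ibudilast and 20 PBS members, most of them with Trac, and the Lef1-zero T cells with it. The part of the few members without Trac was not tested on its own.

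Beyond Lef1 itself, the members were compared with Lef1-zero T cells of the same library over 5166 genes with at least 100 UMIs in each library. A gene is counted when its ratio was past 1.5-fold the same way in both libraries. Higher genes numbered 42 (0.813% of those compared) and lower genes 105 (2.03%), 2.85% either way. With NK receptor RNA left out of both sides, 20 genes were higher and 88 lower of 3036 compared, and 6 of the higher ones were among the 42 and 29 of the lower ones among the 105. After thinning, 53 genes were higher and 85 lower of 1574, with 6 of the higher ones among the 42 and 18 of the lower ones among the 105. Among CD8 cells alone 62 were higher and 126 lower of 2883, with 11 among the 42 and 55 among the 105. Among CD4 cells alone 11 of 1630 were higher, none of them among the 42, and 22 lower, 4 of them among the 105. CD8 cells were 38.0% (ibudilast) and 33.9% (PBS) of members, against 61.3% (ibudilast) and 50% (PBS) of Lef1-zero T cells. Gene lists below were drawn up with earlier results of these data known, so their counts describe and do not test.

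Among 13 naive and memory genes compared, 6 were higher and none lower, with medians of 0.78 log2 in the ibudilast library and 0.90 log2 in the PBS library, against -0.02 and -0.01 log2 over all genes. The 6 were Id3, Klf2, Klf3, Satb1, Foxp1 and Il6ra. The median over both libraries was 0.78 log2, and among CD4 cells alone it was 0.43 log2. Klf2 did not pass in both libraries among CD4 cells alone (0.37 log2) or with NK receptor RNA left out (0.74 log2). Id3 was close to the minimum of 100 UMIs in the PBS library, with 38 UMIs in members and 65 in Lef1-zero T cells. It fell below that minimum after thinning, among CD8 or CD4 cells alone and with NK receptor RNA left out, so it was not compared there. Summed over the list, members had 3161 (ibudilast) and 3151 (PBS) CPM and Lef1-zero T cells 1820 (ibudilast) and 1733 (PBS) CPM, while NK barcodes without CD3 were above both, at 4780 (ibudilast) and 3306 (PBS) CPM. Klf2 alone gave much of these sums, 1391 of 2598 UMIs in ibudilast members and 1075 of 1998 in PBS members. In Lef1-zero T cells it gave 6072 of 12249 UMIs (ibudilast) and 3382 of 6960 (PBS). Satb1, a chromatin organiser of T cells, stood at 2.13 times the Lef1-zero level in the ibudilast library and 1.91 times in the PBS library. Foxp1, which holds T cells in quiescence, stood at 1.71 (ibudilast) and 1.70 (PBS) times that level. Il7r, the receptor for the survival cytokine of resting T cells, was at 1.32 (ibudilast) and 1.48 (PBS) times, short of the mark, and its downstream survival gene Bcl2 at 1.05 (ibudilast) and 0.961 (PBS) times. A further 8 genes of the list, Tcf7 and S1pr1 among them, had too few UMIs for the count. Of those, Nsg2, which marks newly made T cells, was at 21.9 CPM in members and 3.12 CPM in Lef1-zero T cells of the ibudilast library, and at 20.5 CPM in PBS members and 4.23 CPM in PBS Lef1-zero cells.

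Checkpoint and exhaustion genes were lower: 10 of 13 compared, none higher, with medians of -0.74 log2 in the ibudilast library and -1.01 log2 in the PBS library. Pdcd1, which encodes PD-1, was at 106 CPM in members and 187 CPM in Lef1-zero T cells of the ibudilast library (ratio 0.567), and at 88.3 CPM in PBS members and 214 CPM in PBS Lef1-zero cells (ratio 0.413). Lag3 was at 0.312 times the Lef1-zero level in the ibudilast library and 0.296 times in the PBS library. Havcr2, which encodes TIM-3, was at 0.386 (ibudilast) and 0.291 (PBS) times. Tox, the factor that sustains exhaustion, was at 0.644 (ibudilast) and 0.613 (PBS) times, and Ctla4 at 0.596 (ibudilast) and 0.584 (PBS) times. Entpd1, Cd160 and Tnfrsf9 did not pass 1.5-fold in both libraries. The median over both libraries was -0.87 log2, and it was -1.43 log2 with at least 2 Lef1 UMIs, -1.19 log2 among CD8 cells alone and -0.24 log2 among CD4 cells alone. Lag3 did not pass in both libraries after thinning (-0.54 log2) or among CD4 cells alone (-0.93 log2), nor did Havcr2 among CD4 cells alone (-0.54 log2).

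Cytotoxic genes were lower in part, 8 of 19 compared and none higher, with medians of -0.55 log2 in the ibudilast library and -0.87 log2 in the PBS library. The 8 were Gzmb, Prf1, Nkg7, Ifng, Klrd1, Cst7, Id2 and Prdm1. Gzmb, the chief granule protease, was at 641 CPM in members and 1319 CPM in Lef1-zero T cells of the ibudilast library, and at 519 CPM in PBS members and 1816 CPM in PBS Lef1-zero cells, but among CD4 cells alone it did not pass in both libraries (-1.40 log2). Prf1, which encodes the pore protein perforin, was at 0.252 (ibudilast) and 0.209 (PBS) times the Lef1-zero level. Ccl5, a chemokine that memory cells also make, was closer, at 0.761 (ibudilast) and 0.599 (PBS) times. Summed over the whole cytotoxic list, members had 9739 CPM and Lef1-zero T cells 14602 CPM in the ibudilast library, and 7066 CPM in PBS members and 15508 CPM in PBS Lef1-zero cells. Those sums were above the 3878 (ibudilast) and 3670 (PBS) CPM of myeloid barcodes.

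Genes that hold T cells in tissue were lower in 3 of 8 cases, Itgae, Itga1 and Cxcr6, and none was higher. Cxcr6, a chemokine receptor of resident T cells, was at 178 CPM in members and 431 CPM in Lef1-zero T cells of the ibudilast library, and at 191 CPM in PBS members and 405 CPM in PBS Lef1-zero cells. Of 11 activation genes 2 were higher, Nr4a1 at 1.66 (ibudilast) and 1.75 (PBS) times and Myc at 2.10 (ibudilast) and 1.66 (PBS) times, and none was lower. Interferon response genes (16 compared), glycolysis and hypoxia genes (15), dissociation stress genes (14) and partners of TCF and LEF factors (6) held none past 1.5-fold in both libraries. Among T cell receptor complex genes 3 of 15 were lower, Trac at 0.598 (ibudilast) and 0.564 (PBS) times, Cd8a at 0.342 (ibudilast) and 0.282 (PBS) times and Cd8b1 at 0.416 (ibudilast) and 0.481 (PBS) times.

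The genes named by rank were those whose intervals lay farthest from equality in both libraries. Among the higher ones, Gramd3 was at 2.59 times the Lef1-zero level in the ibudilast library and 3.11 times in the PBS library. Slamf6, a surface receptor of progenitor exhausted T cells, was at 2.49 (ibudilast) and 3.03 (PBS) times. Of 9 stem-like and progenitor memory genes compared, 1 was higher past 1.5-fold and none lower. Their medians were 0.07 log2 in the ibudilast library and -0.11 log2 in the PBS library. Over both libraries the median was -0.02 log2. It was -0.63 log2 among CD8 cells alone and -0.46 log2 with at least 2 Lef1 UMIs. Emb, a cell adhesion protein, was at 2.36 (ibudilast) and 2.11 (PBS) times, and Ssh2, a phosphatase of the actin skeleton, at 2.10 (ibudilast) and 1.92 (PBS) times. Rasgrp2, an exchange factor that activates Rap1 and integrins, was at 2.05 (ibudilast) and 2.67 (PBS) times. Kbtbd11 was at 2.14 (ibudilast) and 2.19 (PBS) times and Kctd12 at 2.28 (ibudilast) and 1.88 (PBS) times, although Kctd12 was also at 183 (ibudilast) and 214 (PBS) CPM in myeloid barcodes.

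Igkc and Klra7 also ranked among the higher genes. Igkc, the kappa light chain of antibodies, was at 47.4 (ibudilast) and 9.16 (PBS) times, but 1 ibudilast member held 3402 of its 3452 UMIs. Without the highest cell of each set the ratios were 0.832 (ibudilast) and 4.88 (PBS). Klra7, an NK receptor of the Ly49 family, was at 64.5 CPM in members and 19.8 CPM in Lef1-zero T cells of the ibudilast library, and at 89.9 CPM in PBS members and 23.4 CPM in PBS Lef1-zero cells. It was found in 12 ibudilast and 9 PBS members, and 11 (ibudilast) and 7 (PBS) of those also had a UMI of another NK receptor. Ly49 genes are near copies of each other, so the assignment of reads to Klra7 is uncertain.

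Among the lower ones, Klrh1, a lectin-like receptor, was at 0.090 (ibudilast) and 0.072 (PBS) times and was found in 2 members of each library. Ifitm1, an interferon-induced membrane protein, was at 0.245 (ibudilast) and 0.235 (PBS) times, Klrc1, which encodes NKG2A, at 0.364 (ibudilast) and 0.226 (PBS) times, and Adgrg1, a receptor of cytotoxic lymphocytes, at 0.220 (ibudilast) and 0.110 (PBS) times. Rgs16 was at 0.472 (ibudilast) and 0.235 (PBS) times. With cells holding NK receptor RNA left out of both sides, the log2 ratio of Cd8a to the Lef1-zero level, averaged over both libraries, was -0.63, against -1.68 with them. That of Cd8b1 was -0.09, against -1.16. Rgs16 and Ifitm1 then did not pass in both libraries, at -1.66 and -1.22 log2.

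**Figure D3:**
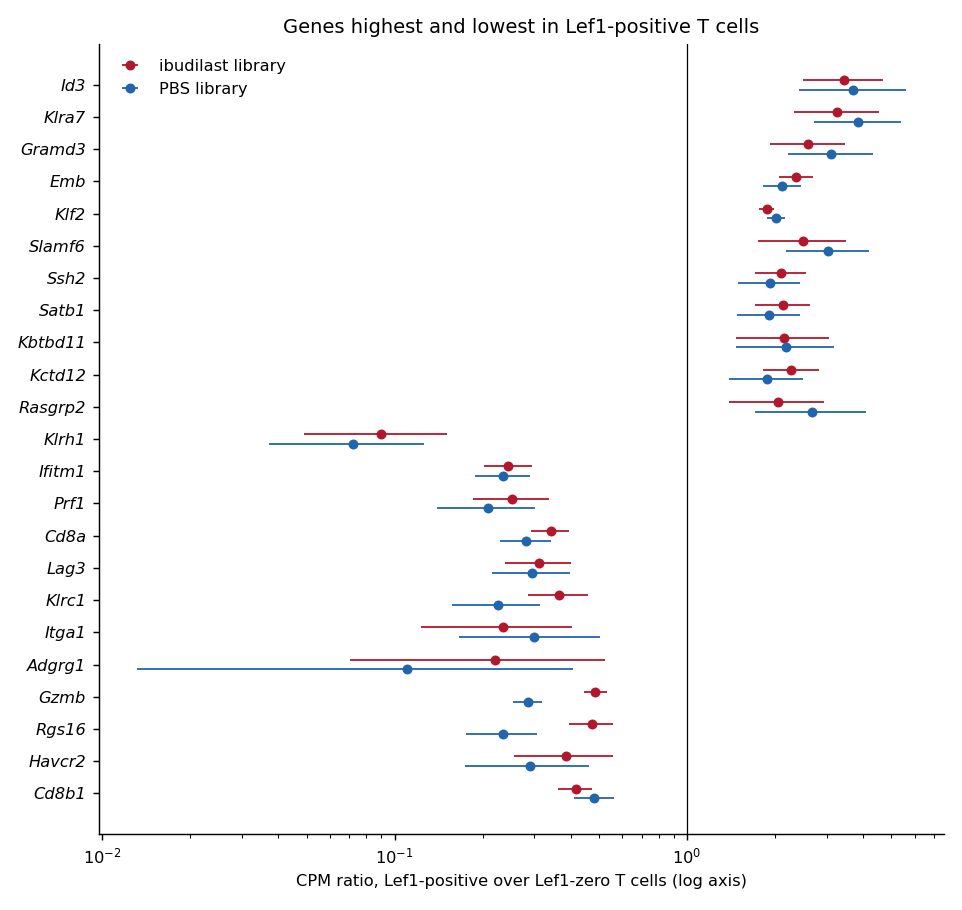
Ratio of CPM in Lef1-positive over Lef1-zero T cells for 23 genes named by rank, on a log axis, in the ibudilast and PBS libraries, with 95% counting intervals. Igkc, set by 1 barcode in the ibudilast library, is not drawn. The ranking took only genes on the same side of 1 in both libraries, so what to read is the size, such as Klrh1 at 0.090 (ibudilast) and 0.072 (PBS).

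Macrophage RNA did not set the members apart. Its 13 markers were all detected and summed to 15944 CPM in members and 14289 CPM in Lef1-zero T cells of the ibudilast library, and to 12388 CPM in PBS members and 12294 CPM in PBS Lef1-zero cells, against 49758 (ibudilast) and 48296 (PBS) CPM in myeloid barcodes. B cell markers summed to 192 CPM in ibudilast members and 167 CPM in ibudilast Lef1-zero cells, and to 421 CPM in PBS members and 97.1 CPM in PBS Lef1-zero cells. Of the 8 B cell markers, 7 were detected in ibudilast members, where Pax5 was at 0, and 8 in PBS members, and 2 members of each library held at least 10 UMIs of B lineage genes. NK markers summed to 3063 CPM in ibudilast members and 2720 CPM in ibudilast Lef1-zero cells, and to 1561 CPM in PBS members and 2922 CPM in PBS Lef1-zero cells.

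Among themselves the members split by lineage. CD8 cells, with Cd8a or Cd8b1 and no Cd4, numbered 27 of 71 in the ibudilast library (38.0%, interval 26.8 to 50.3) and 21 of 62 in the PBS library (33.9%, interval 22.3 to 47.0). CD4 cells numbered 14 in each library, 19.7% of ibudilast and 22.6% of PBS members. Cells with both numbered 5 (ibudilast) and 1 (PBS), and cells with neither 25 in the ibudilast library (35.2%) and 26 in the PBS library (41.9%). Lef1-zero T cells were CD8 in 61.3% (ibudilast) and 50% (PBS) of cases, CD4 in 15.6% (ibudilast) and 27.1% (PBS), and neither in 18.1% (ibudilast) and 20.0% (PBS). Cells with neither thus made up a larger share of members than of Lef1-zero T cells. They had medians of 13 (ibudilast) and 14.5 (PBS) CD3 UMIs, against 18 (ibudilast) and 17 (PBS) in CD8 members and 20 (ibudilast) and 26 (PBS) in CD4 members. Trac was found in 18 of the 25 ibudilast and 21 of the 26 PBS cells with neither, and Ncr1 in 6 and 4 of them. Markers of gamma-delta and innate-like T cells, Klrb1c among them, summed to 746 CPM in ibudilast cells with neither. They were at 64.3 CPM in CD8 and 66.0 CPM in CD4 members there. In the PBS library they were at 330 CPM in cells with neither, 270 CPM in CD8 and 111 CPM in CD4 members. What kind of cell gave these sums was not tested. After thinning of the 70 ibudilast and 62 PBS members that were deep enough, 60% (ibudilast) and 56.5% (PBS) of members had neither, against 30.4% (ibudilast) and 33.3% (PBS) of Lef1-zero T cells.

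**Figure D4:**
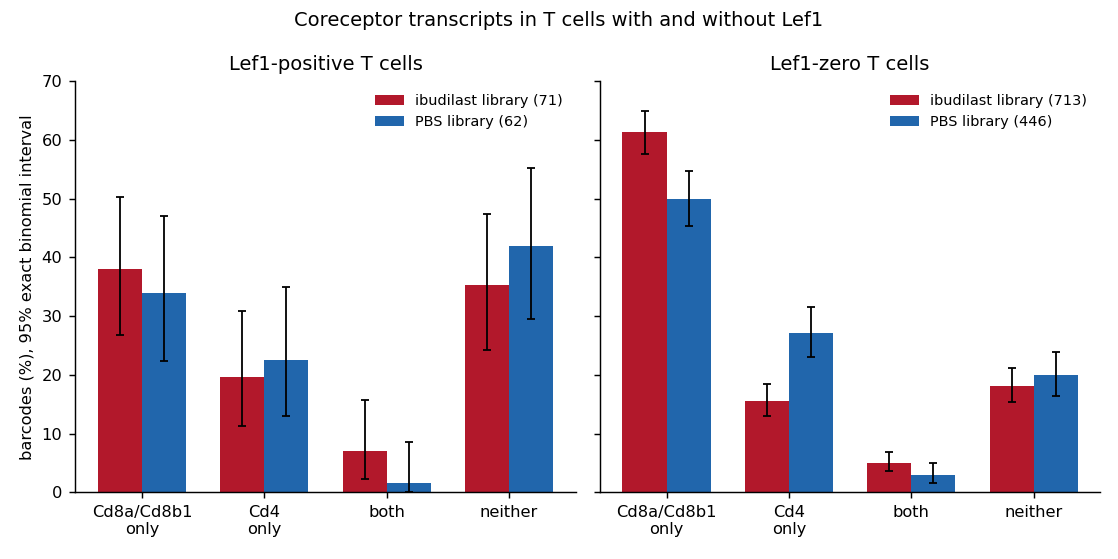
Percent of Lef1-positive and Lef1-zero T cells with CD8, CD4, both or neither RNA in the ibudilast and PBS libraries, with exact 95% binomial intervals. Cells with neither are 35.2% (ibudilast) and 41.9% (PBS) of Lef1-positive cells, against 18.1% (ibudilast) and 20.0% (PBS) of Lef1-zero cells.

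Tcf7 varied with the lineage. It was found in 11 of 27 CD8 members of the ibudilast library and 11 of 21 of the PBS library, against 0 of 14 (ibudilast) and 3 of 14 (PBS) CD4 members. Among members with neither it was found in 11 of 25 (ibudilast) and 9 of 26 (PBS). In CD8 Lef1-zero T cells Tcf7 was found in 4.81% (ibudilast) and 4.04% (PBS), so the distance between CD8 cells with and without Lef1 was wide. CD4 Lef1-zero T cells held it in 10.8% (ibudilast) and 11.6% (PBS), and the CD4 members were too few to set against them.

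The CD8 members were compared with the CD4 members over 1034 genes with at least 50 UMIs in each library. In both libraries 17 genes (1.64%) were higher past 1.5-fold and 43 (4.16%) lower, 5.8% either way. This split moved to 31 higher and 27 lower when antigen receptor, ribosomal, mitochondrial and haemoglobin genes were left out of the total, and to 19 higher and 41 lower when the median ratio was set to 1. The balance of the directions therefore depends on the scaling. Higher in CD8 members was Nkg7, at 1167 CPM in CD8 and 528 CPM in CD4 members of the ibudilast library, with a ratio of 1.76 in the PBS library. Nkg7 did not pass in both libraries with C1q under 0.1% of UMIs (0.45 log2) or with at least 2 Lef1 UMIs (2.49 log2). Ctsw, a protease of cytotoxic cells, was at 2.45 (ibudilast) and 3.12 (PBS) times the CD4 level, and Klrd1, the partner chain of NKG2 receptors, at 5.37 (ibudilast) and 1.93 (PBS) times. Ifitm1 was at 8.70 (ibudilast) and 22.3 (PBS) times, and Dnajc15 at 4.74 (ibudilast) and 2.25 (PBS) times. Ly6c2, a memory marker of CD8 cells, was at 1.77 (ibudilast) and 8.02 (PBS) times. It is also on the macrophage and monocyte list, and was at 492 (ibudilast) and 225 (PBS) CPM in myeloid barcodes.

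Lower in CD8 members were genes of helper and regulatory cells. Maf, a factor of helper and regulatory T cells, was at 0.160 times the CD4 level in the ibudilast library and 0.048 times in the PBS library, and Icos, a costimulatory receptor, at 0.069 (ibudilast) and 0.199 (PBS) times. Ikzf2, which encodes Helios, a factor of regulatory T cells, was found in 11 of 27 (ibudilast) and 7 of 21 (PBS) CD8 members, against 13 of 14 (ibudilast) and 12 of 14 (PBS) CD4 members. Tnfrsf18, which encodes GITR, was at 0.106 (ibudilast) and 0.340 (PBS) times. Of the regulatory markers 4 had enough UMIs, and all 4 were lower in CD8 members. Summed over the list, regulatory markers were at 673 CPM in CD8 members and 5065 CPM in CD4 members of the ibudilast library, and at 739 CPM in CD8 and 1863 CPM in CD4 members of the PBS library. The rule took only cells without a Foxp3 UMI, and at this depth a cell with none may still express it. Cd82 (0.233 in ibudilast, 0.269 in PBS), Hif1a (0.2998 in ibudilast, 0.358 in PBS), Odc1 (0.208 in ibudilast, 0.366 in PBS) and Sdf4 (0.132 in ibudilast, 0.156 in PBS) were the other low genes.

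Tcf7-positive members held less Cxcr6 and Pdcd1 RNA than members without Tcf7. Cxcr6 was at 97.4 CPM in the 25 Tcf7-positive and 226 CPM in the 46 Tcf7-zero members of the ibudilast library, and at 55.3 CPM in the 23 Tcf7-positive and 261 CPM in the 39 Tcf7-zero members of the PBS library. Pdcd1 was at 61.7 CPM in Tcf7-positive and 132 CPM in Tcf7-zero members of the ibudilast library, and at 59.9 CPM in Tcf7-positive and 103 CPM in Tcf7-zero members of the PBS library. A homing gene was found in 64.0% of Tcf7-positive and 43.5% of Tcf7-zero members of the ibudilast library, and in 52.2% of Tcf7-positive and 30.8% of Tcf7-zero members of the PBS library. Single effector genes did not go one way. Ccl5 was at 2862 CPM in Tcf7-positive and 3155 CPM in Tcf7-zero members of the ibudilast library, and at 3321 CPM in Tcf7-positive and 1597 CPM in Tcf7-zero members of the PBS library. Gzmb was at 522 CPM in Tcf7-positive and 712 CPM in Tcf7-zero members of the ibudilast library, and at 341 CPM in Tcf7-positive and 611 CPM in Tcf7-zero members of the PBS library. The sets also differed in lineage, with 0 of 25 (ibudilast) and 3 of 23 (PBS) Tcf7-positive members being CD4 cells, against 14 of 46 (ibudilast) and 11 of 39 (PBS) Tcf7-zero members, and the part of this in the values was not tested. These sets are small, and their median depths were 9418 UMIs with and 7592.5 UMIs without Tcf7 in the ibudilast library, and 8072 UMIs with and 9021 UMIs without in the PBS library.

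Members with homing RNA also differed in Cxcr6 and Pdcd1. Cxcr6 was at 113 CPM in the ibudilast members with Ccr7 or S1pr1 and 259.7 CPM in those without, and at 86.4 CPM in the PBS members with them and 285 CPM in those without. Pdcd1 was at 78.3 CPM with and 141 CPM without in the ibudilast library, and at 33.2 CPM with and 138 CPM without in the PBS library. The cells with homing RNA thus held less RNA of both genes in each library. These sets also differed in lineage. CD4 cells were 3 of 36 with and 11 of 35 without homing RNA (ibudilast), and 3 of 24 with and 11 of 38 without (PBS). Median depths were 10917 UMIs with and 7194 without in the ibudilast library, and 9811.5 with and 7941.5 without in the PBS library. The part of lineage and depth in the values was not tested.

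The ibudilast members were set against the PBS members over 1981 genes with at least 100 UMIs in both libraries together. Past 1.5-fold, 92 genes (4.64%) were higher and 46 (2.32%) lower, 6.97% either way. Each ratio compares 1 library with 1 library, and a few cells can set it, so the value without the highest cell of each library is given beside some ratios. With NK receptor RNA left out, 29 of 998 genes were higher, 10 of them among the 92, and 31 lower, 7 of them among the 46. With C1q under 0.1% of UMIs, 30 of 653 genes were higher, 7 of them among the 92. Most of the genes past 1.5-fold were thus other ones under these alternatives, which also compared fewer genes.

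Gzma, a granule protease of NK cells and cytotoxic T cells, stood out among the higher genes. It was at 1009 CPM in ibudilast members and 129 CPM in PBS members, a ratio of 7.80 (6.21 to 9.91), and was found in 27 of 71 ibudilast and 10 of 62 PBS cells. With each cell weighted alike the log2 ratio was 1.66, against 2.96. The highest cell held 126 of 829 UMIs in the ibudilast library and 45 of 82 in the PBS library, and without both the ratio was 15.1. In Lef1-zero T cells the summed level went the other way, 1106 CPM in the ibudilast library and 1528 CPM in the PBS library, a ratio of 0.724. The share of cells did not, with Gzma found in 25.4% of ibudilast and 20.6% of PBS Lef1-zero T cells. Gzma was much higher in NK barcodes, at 8878 (ibudilast) and 4261 (PBS) CPM. In members with an NK receptor UMI it was at 1541 CPM in the ibudilast library and 232 CPM in the PBS library. In members without one it was at 395 CPM (ibudilast, 151 UMIs in 8 of 43 cells) and 56.6 CPM (PBS, 21 UMIs in 2 of 42 cells). The order of the libraries was the same in both kinds of cell, but the second rests on few cells. Background also differed, with 197 CPM in ibudilast and 66.7 CPM in PBS myeloid barcodes. PBS members without an NK receptor UMI were thus not above their background.

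Other higher genes had smaller ratios. Tnfrsf4, the costimulatory receptor OX40, was at 292 CPM in ibudilast members and 94.6 CPM in PBS members, a ratio of 3.09 (2.94 without the highest cells). Rsad2, an antiviral interferon-induced enzyme, was at 206 CPM in ibudilast and 72.5 CPM in PBS members, a ratio of 2.83 (2.45 without). Ifit2, another interferon-induced gene, was at 155 CPM in ibudilast and 58.3 CPM in PBS members, a ratio of 2.65 (1.94 without). Neither was found in a wider share of cells, with Rsad2 in 39.4% of ibudilast and 38.7% of PBS members and Ifit2 in 35.2% of ibudilast and 35.5% of PBS members. Ccl4, which encodes the chemokine MIP-1 beta, was at 1211 CPM in ibudilast and 606 CPM in PBS members, a ratio of 2.00. Among CD8 members alone Ccl4 was at 0.46 log2, short of 1.5-fold. Ctla2a, a cysteine protease inhibitor, was at 672 CPM in ibudilast and 323 CPM in PBS members, a ratio of 2.08. In Lef1-zero T cells the ratios were 0.850 for Tnfrsf4, 0.840 for Rsad2, 1.39 for Ifit2, 0.854 for Ccl4 and 0.977 for Ctla2a. Myeloid barcodes held Rsad2 at 146 (ibudilast) and 137 (PBS) CPM, Ifit2 at 185 and 165, and Ccl4 at 1000 and 1235. PBS members were below these levels for each of them, and ibudilast members for Ifit2. Tnfrsf4 and Ctla2a were far lower in myeloid barcodes, at 6.62 and 41.9 (ibudilast) and 2.59 and 18.2 (PBS) CPM. The part of myeloid RNA in the ratios was not tested.

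Several of the higher genes are made mainly by myeloid cells. Lyz2, the lysozyme of macrophages, was at 1785 CPM in ibudilast members and 1025 CPM in PBS members (ratio 1.74), against 4756 (ibudilast) and 5251 (PBS) CPM in myeloid barcodes. Ifitm3 was at 1462 CPM in ibudilast and 784 CPM in PBS members (ratio 1.87), and Ms4a4c at 498 CPM in ibudilast and 251 CPM in PBS members (ratio 1.98), both below their myeloid levels. With NK receptor RNA left out, Lyz2 (0.16 log2), Ifitm3 (0.36 log2) and Ctla2a (0.58 log2) did not pass 1.5-fold. With C1q under 0.1% of UMIs, Lyz2 (0.47 log2) and Ifitm3 (0.35 log2) did not pass either, and with at least 2 Lef1 UMIs they were at 0.08 and 0.29 log2. The chemokine gene Ccl2 had a ratio of 2.04 and the early response gene Ier3 one of 3.00. Ccl2 was at 0.44 log2 with each cell weighted alike, short of 1.5-fold. It was found in 25.4% of ibudilast and 30.6% of PBS members. Of 13 macrophage markers 4 were higher, Lyz2, Cd68, Ms4a7 and Plac8, and none lower, with a median of 0.36 log2. That median was -0.19 log2 with C1q under 0.1% and 0.02 log2 with NK receptor RNA left out, against 0.69 log2 among CD8 members alone, so its size and sign depended on which cells were kept. Igkc led the ranking at 4200 CPM in ibudilast and 214 CPM in PBS members, and its ratio of 19.6 became 0.648 without the highest cell of each library.

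Lower in ibudilast members was Cd7, a surface protein of T and NK cells, at 64.5 CPM in ibudilast and 188 CPM in PBS members, a ratio of 0.344 (0.370 without the highest cells). It was found in 27 ibudilast and 22 PBS members, and its ratio in Lef1-zero T cells was 0.941. Trbc2, the constant part of the T cell receptor beta chain, was at 915 CPM in ibudilast and 1388 CPM in PBS members (ratio 0.659), and the ratio in Lef1-zero T cells was 0.670. It was short of 1.5-fold under 6 alternatives, from -0.23 log2 with NK receptor RNA left out to -0.583 log2 with the median ratio at 1. Trbc1 and Trbc2 are nearly identical, so reads may be split between them. Cd4 was at 56.0 CPM in ibudilast and 109 CPM in PBS members (ratio 0.514), but at -0.42 log2 with each cell weighted alike, short of 1.5-fold. Tnfaip3, a brake on NF-kB signalling, had a ratio of 0.568, Papola, a poly(A) polymerase, 0.533, and Atpif1, an inhibitor of the mitochondrial ATP synthase, 0.590.

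Genes of antigen presenting and myeloid cells were also among those named by rank. Cd74, the invariant chain of MHC class II, was at 3115 CPM in ibudilast and 4474 CPM in PBS members (ratio 0.696), and the class II gene H2-Eb1 had a ratio of 0.690, both short of 1.5-fold. In Lef1-zero T cells Cd74 was at 3122 CPM (ibudilast) and 3348 CPM (PBS), and H2-Eb1 at 1882 CPM (ibudilast) and 1850.3 CPM (PBS). Cxcl9, an interferon-induced chemokine, was at 185 CPM in ibudilast and 337 CPM in PBS members (ratio 0.548), but on the log2 scale it was at 0.82 among CD8 members alone. Gatm and Clec4n had ratios of 0.454 and 0.380. Myeloid barcodes held far more Cd74, 14880 (ibudilast) and 18041 (PBS) CPM. Ighm, the antibody heavy chain of B cells, was at 97.3 CPM in ibudilast and 181 CPM in PBS members (ratio 0.537). It was short of 1.5-fold with B lineage RNA left out (-0.47 log2) and with each cell weighted alike (-0.38 log2).

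By list, 5 of 15 interferon response genes were higher in ibudilast members and none lower (Ifit1, Irf7, Usp18, Rsad2 and Oasl2), with a median of 0.28 log2 against -0.02 log2 over all genes. Of 14 cytotoxic genes 4 were higher (Gzma, Ccl4, Ifng and Zeb2) and none lower, with a median of 0.25 log2. Of 7 naive and memory genes compared, none was higher or lower, and the median was -0.0026 log2. Of 8 checkpoint genes 2 were higher, Rgs16 at 2.01 times and Tnfrsf9 at 2.09 times. Of 15 T cell receptor complex genes 2 were lower, Trbc2 and Cd4, with the exceptions given above. Glycolysis and hypoxia genes (10 compared) held none past 1.5-fold. In the list drawn up for ibudilast targets, only Mif (0.791 times) and Cd74 could be compared, and neither passed 1.5-fold. Of these, Mif is the target, and Cd74 encodes its receptor.

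Summed over whole lists, the ratios in members and in Lef1-zero T cells could be set side by side. Cytotoxic genes had a ratio of ibudilast over PBS of 1.38 in members and 0.942 in Lef1-zero T cells. By lineage the cytotoxic sum was at 9777 CPM in ibudilast and 9163 CPM in PBS CD8 members, and at 9873 CPM in ibudilast and 3731 CPM in PBS CD4 members. Each CD4 value rests on 14 cells, which differed widely. The 5 effector genes ran from 3 to 197 UMIs in an ibudilast CD4 cell and from 0 to 96 in a PBS one. Gzma, with 138 UMIs in the ibudilast CD4 members, was found in 3 of them. NK markers, which hold Gzma too, had a ratio of 1.96 in members and 0.931 in Lef1-zero T cells. Myeloid barcodes held more of that list than members, at 4959 (ibudilast) and 4339 (PBS) CPM, so the sum also takes in RNA that is not of NK cells. Interferon response genes were at 1.27 in members and 1.18 in Lef1-zero T cells, and macrophage markers at 1.29 in members and 1.16 in Lef1-zero T cells, so these pooled ratios were above 1 in both kinds. In members with neither CD4 nor CD8 RNA the order was the other way, with interferon response genes at 5562 CPM in ibudilast and 6562 CPM in PBS members and macrophage markers at 9713 CPM in ibudilast and 11909 CPM in PBS members. Naive and memory genes were at 1.003 in members and 1.05 in Lef1-zero T cells. The difference between the kinds of cell was not tested.

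**Figure D5:**
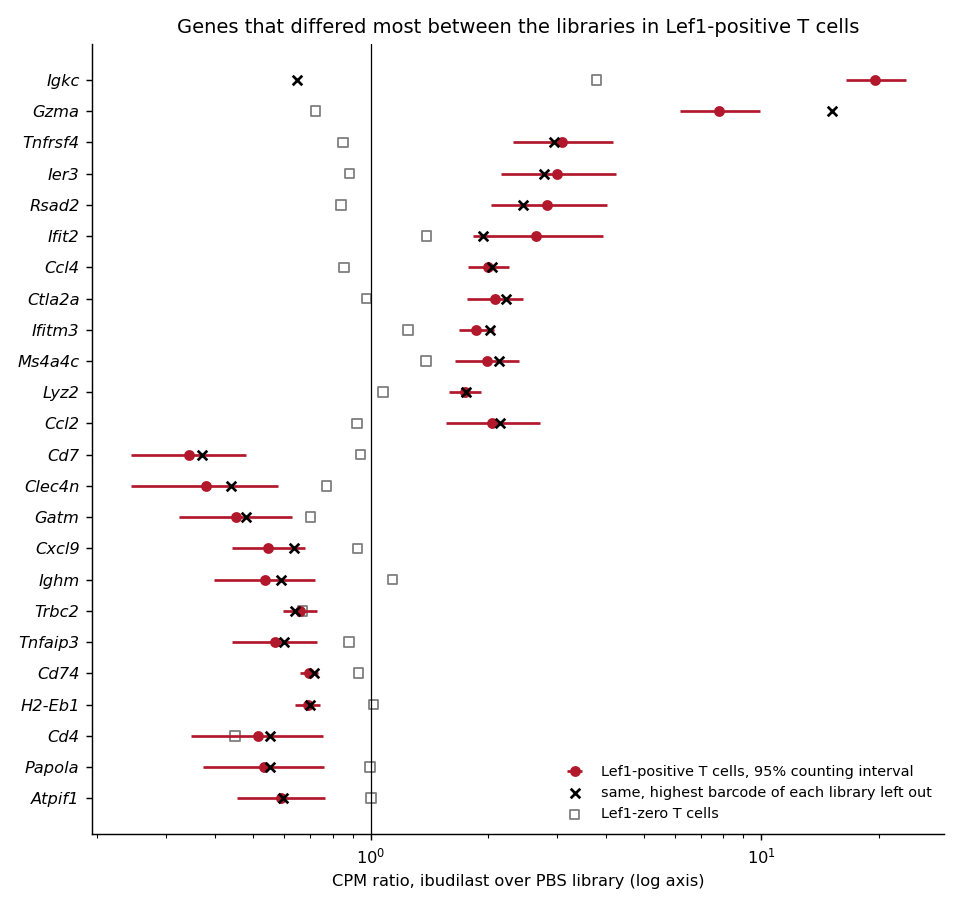
Ratio of CPM in ibudilast over PBS libraries for the 24 genes named by rank, on a log axis, in Lef1-positive T cells with 95% counting intervals, with the same ratio in Lef1-zero T cells and in Lef1-positive T cells without the highest cell of each library. Gzma is at 7.80 in Lef1-positive and 0.724 in Lef1-zero T cells, and Igkc is at 19.6 with and 0.648 without its highest cell.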

How the data were processed

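The authors deposited raw UMI counts per gene and barcode for 2 libraries (10x Genomics 3' v3.1), with Cell Ranger 6.1.1 named in the matrix header, per the file headers, and build mm10, per the submitters' processing notes. Counts were used as deposited. The members and the gene lists (25 lists, 275 of 276 genes in the files) were chosen with earlier results of these data known. A planned gene of the homing set and of the naive and memory list is not reported here, and both were used without it. UMIs were summed per library and cell set and scaled to CPM. Ratios carry 95% exact conditional binomial intervals and shares Clopper-Pearson intervals, both for counting error only. Log2 ratios have 0.5 UMI added. A gene is counted past 1.5-fold, within a library comparison in both libraries. Genes named by rank needed a UMI in 10% of cells, and were ordered by the interval bound nearest to 1, which had to lie beyond 1.25-fold, 12 each way, or 8 each way between CD8 and CD4 members. Genes of the rule, receptor variable genes, haemoglobins, ribosomal and mitochondrial genes were left out of the ranking. Shares were repeated after thinning to 2000 UMIs. Scrublet in scanpy 1.11.5 marked 0 barcodes by its own threshold, so no doublets were removed; leaving out the highest 6% of scores was an alternative. Other alternatives changed the Lef1, CD3, C1q and cell filters, the scaling, the weights and the low-count limit. Leaving out B lineage RNA, NK receptor RNA (Ncr1, Klrb1c, Klra8, Klre1) or, against Lef1-zero T cells, the highest cell, and thinning for the lineage and state genes alone, were chosen after seeing the data. Python 3.11.15, numpy 2.4.6, scipy 1.17.1, pandas 2.3.3 and matplotlib 3.10.9 were used, and the computation was checked on simulated counts.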

Additional observations from a re-analysis of the deposited data

Results flagged for a closer look

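Gzma was at a ratio of 7.80 of ibudilast over PBS in Lef1-positive T cells and at 0.724 in Lef1-zero T cells. It is listed here because the summed levels of the 2 kinds of T cell went opposite ways in the same pair of libraries. The share of cells with Gzma was higher in the ibudilast library in both kinds. It was 38.0% (ibudilast) against 16.1% (PBS) of Lef1-positive and 25.4% against 20.6% of Lef1-zero T cells. With 1 library a group the difference was not tested.

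Lef1 RNA was found outside the T cells. Of barcodes with Ncr1 and no CD3 UMI, 18.2% in the ibudilast library (49 of 269) and 16.7% in the PBS library (22 of 132) had a Lef1 UMI, against 1.48% and 1.03% of C1q-high myeloid barcodes. These NK barcodes are outside the rule and enter no comparison of gene levels between the libraries.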

How the results depend on the processing

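With 2 or more Lef1 UMIs required, the ratio of ibudilast over PBS was 0.486 (0.231 to 0.999) for the share of T cells and 0.864 for the share of kept barcodes, CD4 cells were 6.67% of ibudilast members and homing cells 65% of PBS members. Genes past 1.5-fold numbered 28 higher and 26 lower for ibudilast over PBS, 109 higher and 262 lower for members over Lef1-zero T cells, and 44 higher and 11 lower for CD8 over CD4 members, and Klra7 turned to -0.44 log2 against Lef1-zero T cells. With all barcodes thinned to 2000 UMIs, homing cells were 20% of ibudilast and 22.2% of PBS members, effector cells 76% (ibudilast) and 66.7% (PBS), and CD4 cells 11.1% (PBS). Genes numbered 2 higher and 6 lower of 137 (ibudilast over PBS) and 9 higher and 1 lower of 77 (CD8 over CD4). With only the subset genes thinned, homing cells were 22.9% (ibudilast) and 17.7% (PBS), effector cells 77.1% and 67.7%, and CD4 cells 10% and 11.3%. With C1q under 0.1%, CD8 cells were 25% of ibudilast members, and genes numbered 30 higher and 22 lower (ibudilast over PBS) and 7 higher and 22 lower (CD8 over CD4). Without B lineage RNA 30 genes were lower for ibudilast over PBS. Without NK receptor RNA 29 genes were higher for ibudilast over PBS, 20 for members over Lef1-zero T cells and 28 for CD8 over CD4 members. With each cell weighted alike 73 genes were lower for ibudilast over PBS, 163 lower for members over Lef1-zero T cells and 27 higher for CD8 over CD4 members. A minimum of 20 UMIs gave 704 higher and 594 lower, 218 higher and 290 lower, and 62 higher and 181 lower in the same 3 comparisons. In the CD8 over CD4 comparison, leaving receptor, ribosomal, mitochondrial and haemoglobin genes out of the total gave 31 higher and 27 lower. Among CD8 members alone 23 genes were lower for ibudilast over PBS and Cxcl9 turned to 0.82 log2. Among CD4 cells alone 50 genes were higher for ibudilast over PBS, and 11 were higher and 22 lower for members over Lef1-zero T cells. Igkc turned to -0.62 log2 for ibudilast over PBS without its highest cells. The counts under filters that leave fewer cells or a lower minimum rest on other numbers of genes compared, and the cause of the other shifts was not tested. Of the values of named genes under all alternatives, 659 kept their side of the 1.5-fold mark or were short of it to begin with, 37 no longer passed it, and 3 reversed, those of Klra7, Cxcl9 and Igkc above. No paired analysis was possible because each group is 1 library. Depth limits most single-gene values, since 1 UMI in the ibudilast members is already more than 1 CPM.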

Other observations

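The members without CD4 and CD8 RNA held most of the Klra7 signal, in 8 of the 12 ibudilast and 8 of the 9 PBS members with a UMI of it. Klra7 was also found in 50.9% and 29.5% of NK barcodes without CD3. The summed naive and memory list was higher in these members than in CD4 members, at 4549 against 2326 CPM in the ibudilast library and 3826 against 1482 CPM in the PBS library. Checkpoint genes were lowest there, at 695 CPM in the ibudilast library and 884 CPM in the PBS library, against 2697 and 1658 CPM in CD4 members.

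Xcl1, the chemokine that calls in cross-presenting dendritic cells, was at 1.47 times the Lef1-zero level in ibudilast members and 1.17 times in PBS members. It was at 977 CPM in Tcf7-positive and 315 CPM in Tcf7-zero members of the ibudilast library, and at 451 CPM in Tcf7-positive and 755 CPM in Tcf7-zero members of the PBS library, so the order of these sets was opposite in the libraries.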
